A study of Mus musculus with 4 samples.

Results

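The comparison described here is that of the distal colon of Rspo3 KO mice with the distal colon of control mice, on 2 of the 4 dual-color arrays of the series. The arrays were chosen by their labels, which give Rspo3 KO for one channel and Rspo3++ for the other. Each array carries 1 KO mouse against 1 control mouse, so that there are 2 pairs of mice, and the dyes are reversed between the pairs. Of 27343 genes on the array, 15372 had a probe whose signal stood well above background in 1 or both mice of each pair, and these are the genes measured. Control mice were Myh11CreErt2/Rspo3+/+ littermates and KO mice Myh11CreErt2/Rspo3 fl/fl, all C57BL/6 males aged 6 to 8 weeks. All of them carried the Myh11CreErt2 transgene, which restricts the deletion to Myh11-expressing myofibroblasts and smooth muscle. All received tamoxifen intraperitoneally at 4 mg per 25 g body weight, as 1 dose or on 3 consecutive days, and the tissue was taken 2 weeks later. Which mouse received which schedule is not given in the labels, and the labels name distal colon and extraction with TRIzol where the methods name colon, elsewhere colon epithelium, and spin columns.

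R-spondins are secreted proteins that bind Lgr receptors and thereby keep the ubiquitin ligases Rnf43 and Znrf3 from removing Wnt receptors from the cell surface, so that a cell answers Wnt more strongly. In the colon, stromal cells around the crypt base secrete R-spondins and Wnts, and the stem cells at the crypt base carry the receptor Lgr5. Cells divide in the lower crypt and differentiate as they move to the surface.

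Rspo3 itself could not be followed on these arrays. One of the probes assigned to Rspo3 spans an exon junction on the minus strand (mm9, chr10:29224509-29226228) and is shown because it bears directly on the labels.
Rspo3 probe: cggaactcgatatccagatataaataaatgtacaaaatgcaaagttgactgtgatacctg
In none of the 4 mice did this probe stand well above background, with log2 intensities of 6.21 and 6.35 in the control mice and 6.10 and 6.30 in the KO mice. A further probe assigned to Rspo3 read 6.05 and 6.87 in the control mice and 6.15 and 7.04 in the KO mice and was well above background in pair 2 alone, in both mice. No difference between KO and control mice was detectable with either probe, and neither can show whether Rspo3 was deleted, since a low signal limits both. Tissue markers were those of a full colon wall: the smooth muscle gene Myh11 read 13.30 and 13.59 in the control mice and 13.46 and 13.99 in the KO mice, and the colonocyte gene Lypd8 read 16.16 and 16.19 in the control mice and 16.53 and 16.29 in the KO mice. The 16 smooth muscle genes measured had a median log2 ratio (KO over control) equal to 0.11 in the first pair and 0.21 in the other, and the 11 colon epithelium genes had 0.03 and 0.04. Xist was not well above background in any mouse, and all 4 measured sex-linked genes had opposite signs in the pairs.

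The pairs had little in common across genes. Log2 ratios of the 15372 genes had a Pearson correlation of 0.03 and a Spearman correlation of -0.12 between the pairs, as a description across genes that share both arrays, and 44.2% of genes had the same direction. The mean log2 ratio was past 1.5-fold in the same direction in both pairs for 664 genes, of which 285 (1.85% of genes measured) were higher and 379 (2.47%) lower in KO mice. Each pair alone was past 1.5-fold in the same direction for 307 genes and in opposite directions for 256. The difference between the pairs correlated at 0.20 with the dye effect seen on the arrays of sorted cells, and its part in the spread was not tested. Counts of genes alike in both pairs depend on the scaling. With median centring in place of loess, the median log2 ratio of all genes was 0.55 in pair 1 and -0.52 in pair 2, and 7.95% of genes were higher and 9.36% lower in both pairs, against 20.3% and 23.9% with loess. The counts of the gene lists below stand against these shares.

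With limma, 37 genes passed an adjusted p of 0.05 (0.241% of genes measured). Of these, 20 were higher (0.13%) and 17 lower (0.111%) in Rspo3 KO mice, and 714 genes had an unadjusted p under 0.05. The spread of a gene rests here on 1 degree of freedom and is steadied by the spread of all genes. In simulated data of the same design the share of false calls tended to lie above the nominal threshold, so the calls are best read with the values of both pairs. The number of calls ran from 0 without a filter on dim probes to 130 with the log ratios of the scanner software, and 8 genes were called with median centring in place of loess. Genes named below were mostly chosen for large ratios alike in both pairs. Where both KO mice lie on the same side of both control mice, this is therefore no further support. The share of all genes measured with such a separation was not counted.

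**Figure D1:**
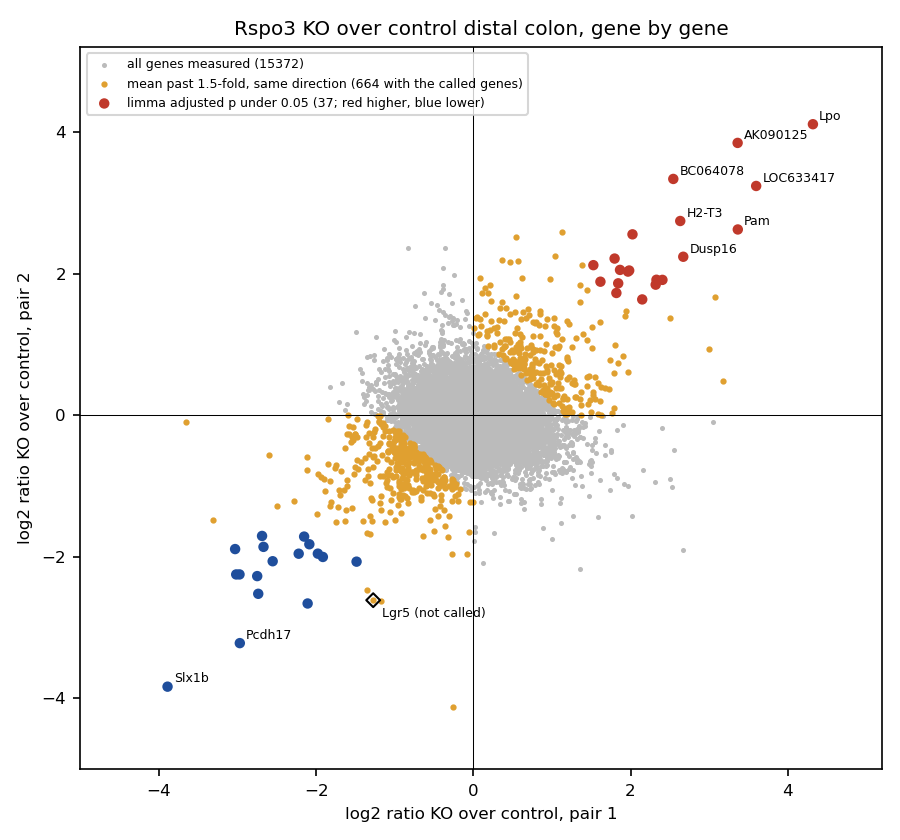
Log2 ratio of Rspo3 KO over control in pair 1 (x axis) against pair 2 (y axis), with 1 point for each of 15372 genes. The 37 genes called by limma lie far out on the diagonal, with means between 1.75 and 4.22 or between -3.86 and -1.78, while most genes form a cloud with a correlation of 0.03.

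Among the genes that rose, Lpo had the largest mean log2 ratio. Lpo encodes lactoperoxidase, an antimicrobial peroxidase of secretions, and its log2 intensity was 10.47 and 11.45 in the control mice and 14.79 and 15.56 in the KO mice. Both KO mice stood above both controls, and the log2 ratio was 4.22 ± 0.15 (SD, n = 2 pairs), an 18.6-fold rise (limma adjusted p = 0.00161). The antimicrobial list to which it belongs had 14 genes measured, of which 5 were higher and 1 lower in both pairs, and Lpo alone was called. Pla2g2a, a secreted phospholipase with antibacterial activity, had log2 ratios of 1.36 and 1.60. Reg3b, a bactericidal lectin, had log2 ratios of -0.26 and -4.12, and its mean rests on the control mouse of pair 2, the only mouse of the 4 with a high signal. Retnlb had opposite signs in the pairs (-0.74 and 1.54).

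Cdx2, the transcription factor that specifies intestinal epithelium, read 11.01 and 11.20 in the control mice and 13.34 and 13.11 in the KO mice. The groups did not overlap, and Cdx2 rose by a log2 ratio of 2.12 ± 0.30 (SD, n = 2 pairs, limma adjusted p = 0.0199). Cdx2 has 1 measured probe on this array. Of 11 colon epithelium genes measured, Cdx2 included, 3 were higher and 2 lower in both pairs, against 20.3% and 23.9% of all genes measured.

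Sfrp1, a secreted inhibitor of Wnt ligands, read 8.65 and 9.19 in the control mice and 10.80 and 10.82 in the KO mice and rose by 1.89 ± 0.36 (SD, n = 2 pairs, limma adjusted p = 0.0317). Its second probe gave log2 ratios of 0.00 and 0.60, so the probes of Sfrp1 do not give the same size. Of 14 Wnt ligands and secreted Wnt inhibitors measured, 5 were higher and 3 lower in both pairs, and Sfrp1 was the only one called or past 1.5-fold. Sfrp4, of the same family as Sfrp1, had log2 ratios of 0.70 and 0.45, and the ligand Wnt5a had 0.46 and 0.51.

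The H2-T3 probe and the LOC633417 probe lie 159 bases apart on chromosome 17 and detect a thymus leukaemia antigen, a nonclassical MHC class I molecule of intestinal epithelium. H2-T3 read 6.92 and 6.11 in the control mice and 9.56 and 8.85 in the KO mice and was not well above background in either control mouse. With the reported processing the bound on its rise was 6.2-fold (limma adjusted p = 0.0081). Its mean log2 ratio was 1.61 with the background fitted to all spots. LOC633417 read 7.74 and 7.47 in the control mice and 11.34 and 10.71 in the KO mice (log2 ratio 3.42 ± 0.26, SD, n = 2 pairs, limma adjusted p = 0.0027). The probes may read the same transcripts and count as 1 observation. Of 22 MHC and antigen presentation genes measured, H2-T3 included, 5 were higher and 6 lower in both pairs. The class I gene H2-Q1 had log2 ratios of 1.90 and 0.84 and the class II gene H2-Eb1 had -1.38 and -0.91, and neither was called.

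Further genes that rose were Pam, which amidates peptide hormones (log2 ratios 3.37 and 2.62), Dusp16, a phosphatase of the JNK pathway (2.67 and 2.24), Gdpd3, a lysophospholipase D (2.41 and 1.91), and Hal, which starts histidine breakdown (2.32 and 1.84). Cwh43 had 1.87 and 2.05, Wdfy1 had 1.98 and 2.04, Ddah1, which degrades a nitric oxide synthase inhibitor, had 1.97 and 2.03, and Tigar, a regulator of glycolysis, had 1.80 and 2.21. The probes of a gene did not always share a direction: the second Dusp16 probe gave -0.41 and -0.21, and the third Wdfy1 probe gave -0.44 and -0.34. The second Pam probe gave 1.18 and 0.05, and over the mean of its probes Pam was not called (limma adjusted p = 0.199). Of 15 called genes with further measured probes, 13 had every probe on the side of the call. The remaining calls on the higher side were AK090125 (3.36 and 3.85), BC064078 (2.54 and 3.34), Cuedc1 (1.53 and 2.12), AK054546 (1.82 and 1.73), Cma1 and a pair of immunoglobulin probes described with the immune genes.

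Among the genes that fell, Slx1b had the lowest mean log2 ratio. Slx1b encodes a subunit of a structure-specific endonuclease that resolves recombination intermediates, and its brighter probe read 10.99 and 10.67 in the control mice and 7.10 and 6.84 in the KO mice. It fell by 3.86 on the log2 scale (SD 0.04, n = 2 pairs, limma adjusted p = 0.00161). The second probe gave -0.73 and -0.81, so the direction held and the size did not. Pcdh17, a protocadherin, read 11.09 and 10.33 in the control mice and 8.11 and 7.11 in the KO mice (mean log2 ratio -3.10 ± 0.18, SD, n = 2 pairs, limma adjusted p = 0.00389), and its second probe gave -1.88 and -1.29. In sorted epithelium Pcdh17 was higher in the Axin2+ cells, by log2 ratios of 2.11 and 1.75 on the 2 arrays of 1 pool of RNA.

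Upb1, an enzyme of pyrimidine breakdown that fell, read 12.52 and 12.64 in the control mice and 9.55 and 10.39 in the KO mice (limma adjusted p = 0.0135), and Fbp1, of gluconeogenesis, read 10.26 and 9.42 in the control mice and 7.59 and 7.56 in the KO mice (limma adjusted p = 0.0208). Slc27a2, which activates very-long-chain fatty acids, had log2 ratios of -2.22 and -1.96, and Nags, which starts the urea cycle, had -1.92 and -2.004, with -0.62 and -0.36 for its second probe. Stk25, a kinase of the STE20 family, had -1.98 and -1.96, Lrmda had -2.09 and -1.82, Bex4 had -1.49 and -2.07, a probe without a gene name on chromosome 7 had -3.03 and -1.89, and Raet1e, a ligand of the natural killer receptor NKG2D, had -2.11 and -2.66. A list of xenobiotic and other metabolising enzymes, which holds Upb1, had 4 of 24 members higher and 11 lower in both pairs, with a median of -0.18 against -0.01 for all genes (1 higher and 6 lower with median centring).

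**Figure D2:**
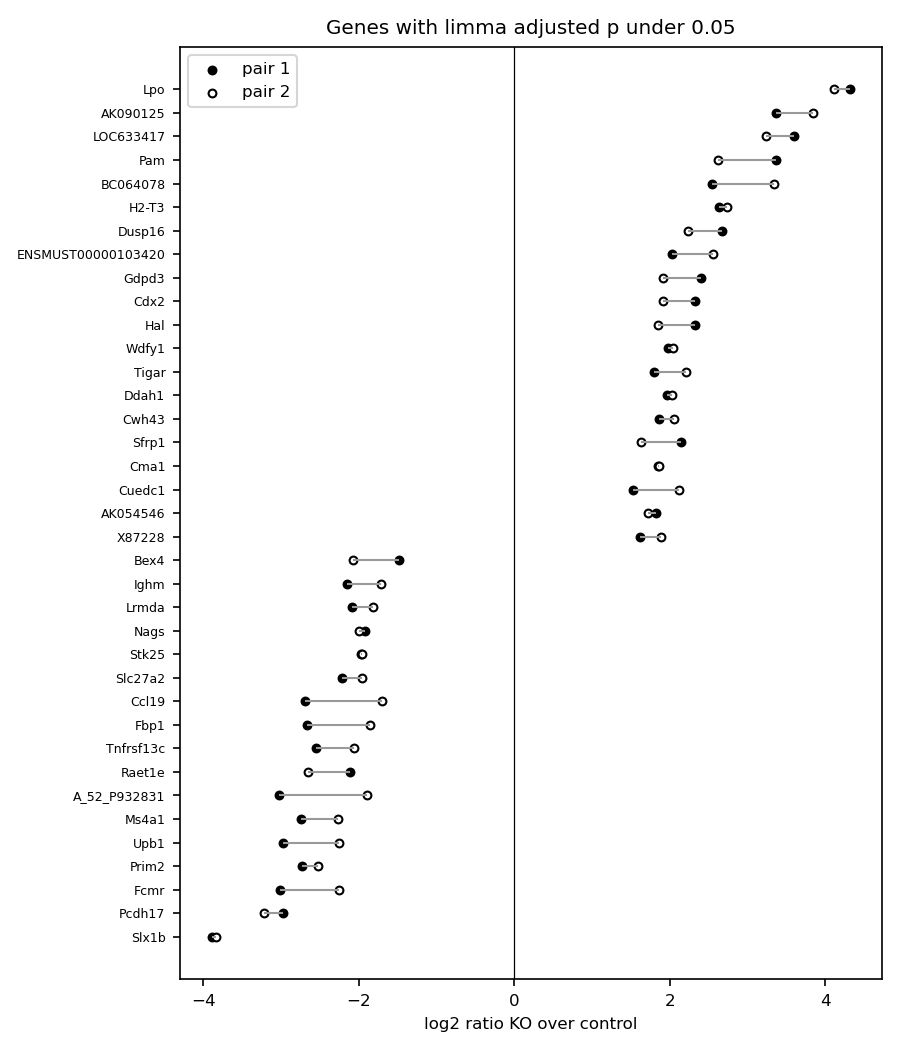
Log2 ratio of Rspo3 KO over control in each pair for the 37 genes called by limma, with filled points for pair 1, open points for pair 2 and a line between them. Both pairs lie on the same side of 0 for every gene shown, from Lpo at 4.32 and 4.11 to Slx1b at -3.89 and -3.84.

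Genes of the crypt base had a median of the mean log2 ratio of -0.40, and none passed limma's threshold. The receptor gene Lgr5, a marker of crypt base stem cells, read 7.75 and 9.19 in the control mice and 6.48 and 6.57 in the KO mice. Its signal was well above background in both control mice and in neither KO mouse. With the reported processing the bound on its fall was 3.85-fold (log2 ratios -1.28 and -2.61, limma adjusted p = 0.0998). The bound depends on the processing, and the mean log2 ratio was -1.37 with the background fitted to all spots. Of 24 crypt base stem cell genes measured, 14 were lower and 5 higher in both pairs, and 8 were lower past 1.5-fold with the same direction against 1 that was higher. The shares of all genes measured were 23.9%, 20.3%, 2.47% and 1.85%, so the count of higher genes was near its share. With median centring 8 were lower and 1 higher in both pairs. The list's median log2 ratio was -0.35 in pair 1 and -0.51 in pair 2. The median over all genes measured was 0.00 and -0.02.

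Smoc2, a matricellular protein of crypt base cells, read 10.67 and 10.47 in the control mice and 8.96 and 9.41 in the KO mice, and Cdca7, a gene of cycling progenitors, read 10.63 and 10.49 in the control mice and 9.31 and 9.54 in the KO mice. Ephb3, the ephrin receptor that keeps cells in the lower crypt, read 12.003 and 11.41 in the control mice and 10.40 and 10.40 in the KO mice. In each of these genes both KO mice lay below both control mice, with limma adjusted p of 0.142, 0.226 and 0.169. The genes were named with their ratios known, so the separation is no further support. Kcnq1, a potassium channel, had log2 ratios of -1.26 and -0.58, and the stem cell transcription factor Ascl2 had -0.47 and -0.76 near the lower end of the scale. Aqp4, a water channel of deep colon crypts, went the other way and read 9.22 and 9.78 in the control mice and 11.02 and 10.76 in the KO mice, with all 3 of its probes higher.

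Wnt target genes were split, on a list that shares Lgr5, Ephb3, Rnf43, Axin2 and further members with that of the crypt base. Of 19 measured, 10 were lower and 4 higher in both pairs, with a median of -0.25 in each pair, and 6 were lower past 1.5-fold against none higher. The shares of all genes measured were 23.9%, 20.3%, 2.47% and 1.85%. With median centring 6 were lower and none higher in both pairs. With both mice of each pair required above background, 17 were measured, with 8 lower and 4 higher in both pairs. The shares of all genes were then 24.1% and 19.7%. The median of the mean log2 ratio was -0.08 with that filter and -0.14 with the background fitted to all spots, against -0.25 as reported. The negative regulator Axin2, a broad Wnt target, read 9.66 and 9.55 in the control mice and 9.21 and 9.28 in the KO mice (log2 ratios -0.45 and -0.26, limma adjusted p = 1). Rnf43, a ligase that R-spondins hold back, had log2 ratios of -0.63 and -0.73, and its paralog Znrf3 had 0.14 and -0.63. The transcription factor Tcf7 had -0.40 and -0.77 and Tnfrsf19 had -0.82 and -0.52. Myc had 0.72 and 0.24, and Sox9, Nkd1 and Ephb2 had opposite signs in the pairs. Among R-spondins and their receptors, Lgr4 had 0.65 and -0.40 and Rspo1 1.58 and 0.01, and Rspo2, Rspo4 and Lgr6 were not measured.

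DNA replication genes had a median of the mean log2 ratio of -0.42. Of 27 measured, 18 were lower and none higher in both pairs, 9 were lower past 1.5-fold and 1 was called, against 23.9%, 20.3%, 2.47% and 0.111% of all genes measured. With median centring 12 were lower and none higher. The median was -0.69 in pair 1 and -0.23 in pair 2 with loess. Prim2, a subunit of primase, read 10.86 and 10.58 in the control mice and 8.12 and 8.06 in the KO mice and was the one member called (mean log2 ratio -2.63 ± 0.15, SD, n = 2 pairs, limma adjusted p = 0.0081). The other primase subunit, Prim1, had log2 ratios of -0.69 and -0.72, the polymerase subunits Pola1, Pold1 and Pole had -0.61 and -0.85, -0.93 and -0.77 and -1.21 and -0.44, and the helicase subunits Mcm6 and Mcm7 had -0.76 and -0.57 and -1.20 and -0.10. The recombination and strand repair genes had 14 of 24 lower and none higher in both pairs (9 and none with median centring). Of these genes 3 were lower past 1.5-fold, with Slx1b as the one call, against the same shares of all genes. Brca2 had -0.999 and -0.60.

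Of 20 mitosis genes measured, 17 had opposite signs in the pairs, with a median of -0.62 in pair 1 and 0.48 in pair 2. This depends on the scaling, since with median centring 5 were higher and 6 lower in both pairs. The mitotic kinase Aurka had -0.79 and 0.82 and Cdc20, an activator of the anaphase-promoting complex, had -0.68 and 0.90.

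Promoters are shown for the replication genes Mcm6, Mcm7 and Pola1 and for the Wnt target Tnfrsf19, since these are members lower past 1.5-fold that hold the letters of a motif known for their group. The 250 bases before the start in RefSeq (GRCm38.p6) were searched on both strands for TTTGGCGC, TTTCCCGC or TTTCGCGC, which E2F factors bind, and for CTTTGATC, which TCF and LEF factors bind. Neighbouring matches on opposite strands can overlap. Capitals mark the matches.
Mcm6 (chr1:128359706-128359955, minus strand): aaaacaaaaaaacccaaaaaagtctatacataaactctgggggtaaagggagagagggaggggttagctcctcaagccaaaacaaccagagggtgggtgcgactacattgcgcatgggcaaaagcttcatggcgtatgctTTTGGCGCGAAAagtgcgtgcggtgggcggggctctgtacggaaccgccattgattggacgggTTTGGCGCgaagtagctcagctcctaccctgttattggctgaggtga
Mcm7 (chr5:138171884-138172133, minus strand): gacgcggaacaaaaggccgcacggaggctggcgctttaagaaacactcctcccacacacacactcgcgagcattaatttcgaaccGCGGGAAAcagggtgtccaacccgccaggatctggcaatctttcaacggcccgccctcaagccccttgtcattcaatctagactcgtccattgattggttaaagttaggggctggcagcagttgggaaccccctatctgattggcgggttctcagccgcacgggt
Pola1 (chrX:93632156-93632405, minus strand): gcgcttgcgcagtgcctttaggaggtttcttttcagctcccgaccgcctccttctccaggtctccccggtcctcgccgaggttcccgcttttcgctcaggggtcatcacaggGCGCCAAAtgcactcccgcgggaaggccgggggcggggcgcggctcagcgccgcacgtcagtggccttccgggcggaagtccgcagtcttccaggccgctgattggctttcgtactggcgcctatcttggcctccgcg
Tnfrsf19 (chr14:61037988-61038237, minus strand): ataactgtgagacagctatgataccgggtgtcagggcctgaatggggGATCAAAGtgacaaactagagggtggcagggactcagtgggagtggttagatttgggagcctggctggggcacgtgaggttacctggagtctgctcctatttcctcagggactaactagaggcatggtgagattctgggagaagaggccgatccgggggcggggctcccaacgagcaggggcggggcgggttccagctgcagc
The E2F letters were in 6 of 25 promoters of measured replication genes and in 1.53% of 32851 promoters of the table. The TCF letters were in 1 of 18 promoters of measured Wnt targets and in 0.801% of all. A match is a description of the letters and not a sign that a factor binds there.

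**Figure D3:**
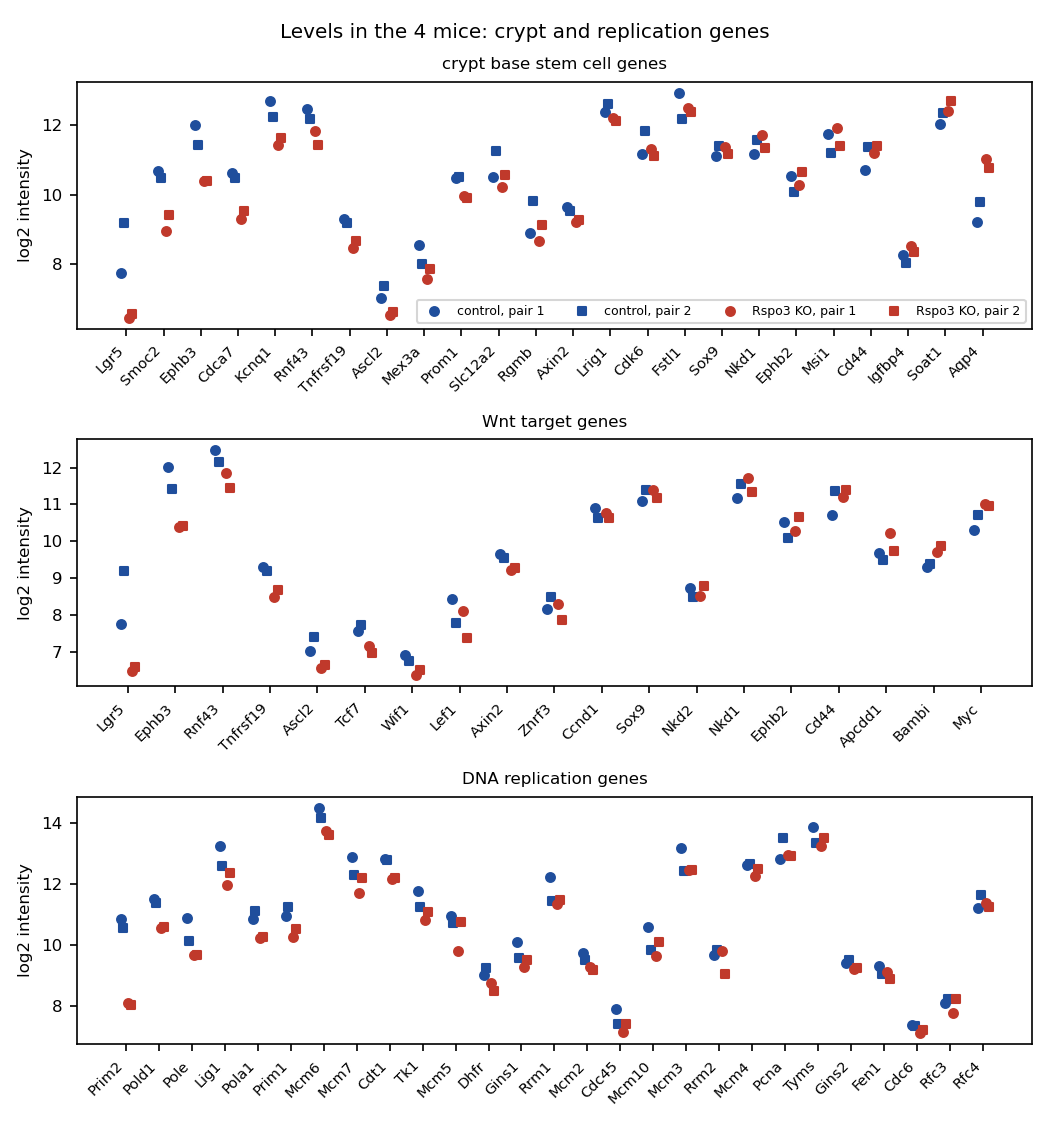
Log2 intensity (y axis) of every measured crypt base, Wnt target and DNA replication gene (x axis, ordered by mean log2 ratio) in the 2 control mice (blue) and the 2 Rspo3 KO mice (red), with circles for pair 1 and squares for pair 2. Both KO mice lie below both controls for Lgr5, Smoc2, Ephb3, Cdca7 and Prim2, while Sox9 and Nkd1 overlap.

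Genes of B cells had the lowest median of the mean log2 ratio (-0.86) among the groups, with -0.94 in pair 1 and -0.67 in pair 2. Its size depended on the processing, from -2.26 with the software's log ratios to -0.38 with the background fitted to all spots. Of 18 measured, 15 were lower and 1 higher in both pairs, 11 were lower past 1.5-fold, and 4 were called lower, against 23.9%, 20.3%, 2.47% and 0.111% of all genes measured. A gene could be measured through the control mice alone. Where both mice of each pair had to be above background, 12 were measured, with 9 lower and 1 higher in both pairs. The shares of all genes were then 24.1% and 19.7%. Ms4a1, which encodes the B cell surface protein CD20, read 9.92 and 9.42 in the control mice and 7.17 and 7.14 in the KO mice (limma adjusted p = 0.0128). Fcmr, the receptor for IgM, read 10.43 and 9.57 in the control mice and 7.41 and 7.32 in the KO mice (limma adjusted p = 0.0135), and Tnfrsf13c, the receptor for the B cell survival factor BAFF, read 9.58 and 9.04 in the control mice and 7.02 and 6.98 in the KO mice (limma adjusted p = 0.0162). Ighm, the constant region of IgM, read 12.51 and 11.78 in the control mice and 10.35 and 10.06 in the KO mice (limma adjusted p = 0.0251). In these genes both KO mice were below both control mice.

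Cr2, a complement receptor of B cells, was not well above background in either KO mouse. The summed linear intensity of the 18 genes was between 14689 and 22899 in control mice and between 13809 and 14994 in KO mice, so that the sums of the groups overlap.

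Genes of antibody-secreting cells had other values. Jchain, which joins secreted IgA and IgM, had log2 ratios of 0.75 and 1.12, and Mzb1 had -0.39 and 1.004. The probe for the IgG1 constant region (ENSMUST00000103420) read 7.49 and 7.49 in the control mice and 9.51 and 10.04 in the KO mice and rose (limma adjusted p = 0.0175), and the X87228 probe 126 bases from it rose alike (1.62 and 1.88). Ccl19, a chemokine that draws lymphocytes into lymphoid tissue, read 11.76 and 10.29 in the control mice and 9.07 and 8.59 in the KO mice and fell (limma adjusted p = 0.0327), and Cxcr5, which guides B cells into follicles, had log2 ratios of -1.82 and -1.23. T cell genes had 8 of 14 lower and none higher in both pairs, against 23.9% and 20.3% of all genes measured, with Cd8b1 at -1.90 and -0.91. In bulk tissue, fewer cells of a type and less RNA per cell cannot be told apart, and the part of lymphoid follicles in the pieces taken was not tested.

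Mast cell genes had the highest median of the mean log2 ratio (0.72), with 0.78 in pair 1 and 0.76 in pair 2. Of 11 genes listed, only 6 were measured. Of these, 5 were higher in both pairs and 3 past 1.5-fold, against 20.3% and 1.85% of all genes measured. Where both mice of each pair had to be above background, 4 were measured, with 3 higher and 1 lower in both pairs. The median ran from 0.34 without a filter on dim probes to 1.89 with error weights. Cma1, a mast cell chymase, read 8.24 and 7.56 in the control mice and 10.08 and 9.42 in the KO mice and rose (limma adjusted p = 0.0245), and the chymase Mcpt4 read 7.67 and 7.02 in the control mice and 8.79 and 8.09 in the KO mice. Kit, the stem cell factor receptor, which other colon cells also carry, was the exception (-0.04 and -1.004).

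Interferon-induced genes had a median log2 ratio of 0.07 in pair 1 and 0.63 in pair 2. Of 26 measured, 14 were higher and none lower in both pairs, against 20.3% and 23.9% of all genes measured, and none was called. The chemokine Cxcl10 had log2 ratios of 1.04 and 2.24, the antiviral proteins Ifit1 and Rsad2 had 0.62 and 1.94 and 0.85 and 1.43, and Isg15, a ubiquitin-like protein, had 0.76 and 0.90. Macrophage genes had 10 of 17 higher and 1 lower in both pairs (5 and none with median centring), against the same shares of all genes. Adgre1 (F4/80) had 0.72 and 0.66.

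**Figure D4:**
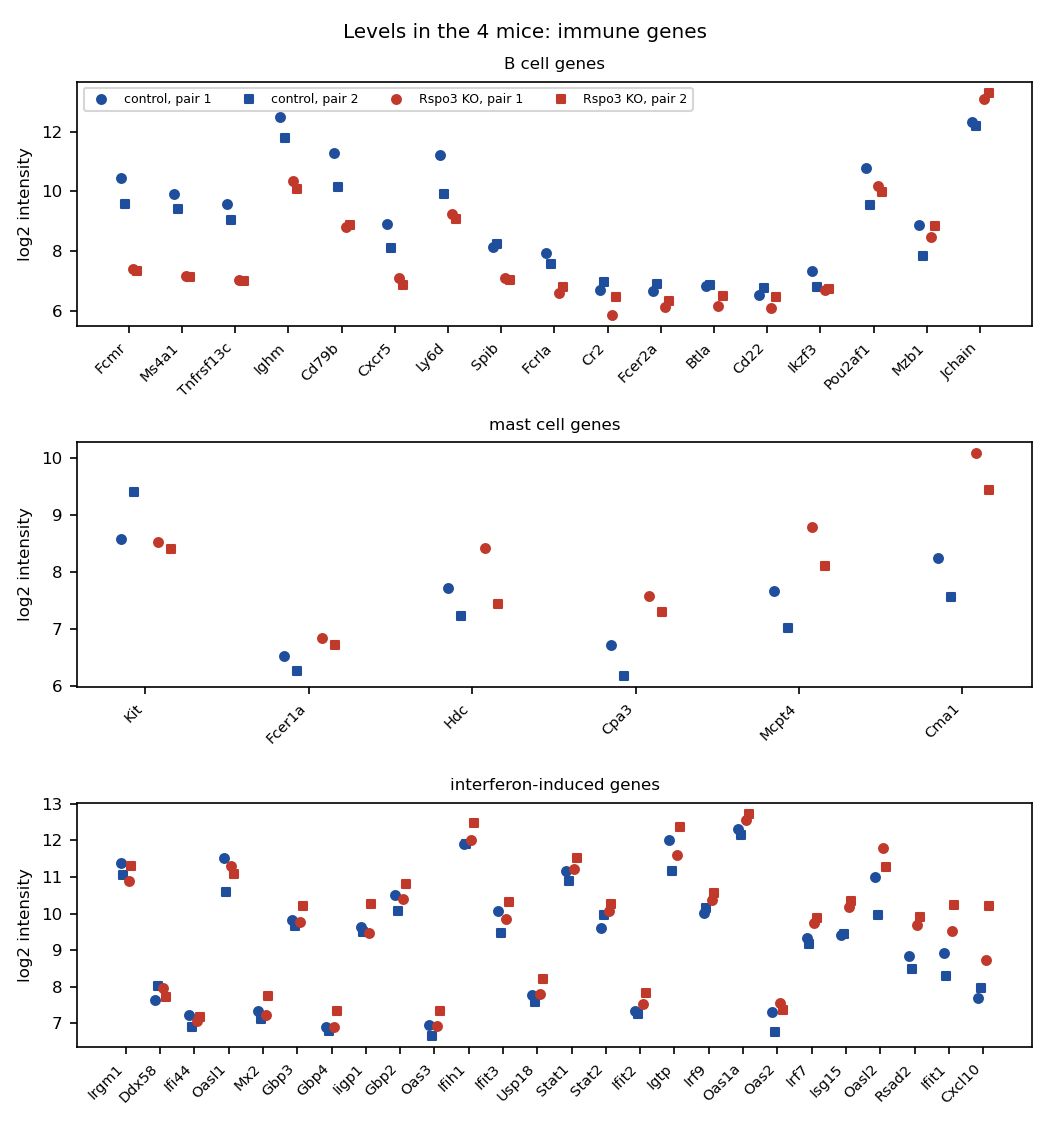
Log2 intensity (y axis) of measured B cell, mast cell and interferon-induced genes (x axis, ordered by mean log2 ratio) in the 2 control mice (blue) and the 2 Rspo3 KO mice (red), with circles for pair 1 and squares for pair 2. Both KO mice lie below both controls for Ms4a1, Fcmr, Tnfrsf13c and Ighm and above both for Cma1 and Mcpt4.

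Stromal and muscle genes showed small shifts. Stromal matrix genes had 12 of 23 higher and none lower in both pairs (3 and none with median centring, 8 and none with the dye effect taken off), with medians of 0.29 and 0.27 and none past 1.5-fold, and Fn1, which encodes fibronectin, had log2 ratios of 0.68 and 0.47. Endothelial genes had medians of 0.03 and 0.11, and enteric neuron and glia genes 0.22 and 0.06. BMP antagonists and ligands were mixed: Bmp3 had -0.96 and -1.27, Bmp2 had 1.31 and 0.25, and Grem1, a stromal BMP antagonist, had 0.86 and 0.07. Of 13 regeneration genes, 4 were higher and 4 lower in both pairs, with the growth factor Areg at 1.47 and 0.55 and Clu at -0.87 and -0.91.

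Surface colonocyte genes had medians of 0.44 and 0.01, with the sodium-proton exchanger Slc9a3 read at 8.69 and 8.31 in the control mice and 10.04 and 10.14 in the KO mice and guanylate cyclase ligand Guca2b at log2 ratios of -0.97 and -0.47. Goblet cell genes had medians of 0.13 and -0.21, and the mucin Muc2 had 0.37 and -0.20. Enteroendocrine genes had medians of -0.22 and -0.10, with 8 of 15 lower and 4 higher in both pairs (3 and none with median centring), with proglucagon (Gcg) at -0.68 and -0.55. Tuft cell genes had 3 of 6 higher and 1 lower in both pairs. Of markers for neighbouring tissues, 6 squamous and 8 small intestine genes were measured, with medians of -0.40 and 0.05 and of 0.13 and -0.37, and 5 adipocyte genes had 0.92 and -0.07. Of the 8 small intestine genes, 4 were higher and 3 lower in both pairs, against 20.3% and 23.9% of all genes measured. All 3 lower ones were past 1.5-fold, against 2.47% of all genes, and none of the higher ones was. Whether the pieces of colon taken differed in position was not tested. The 10 posterior Hox genes had medians of 0.04 and -0.11, and unfolded protein response genes had 0.04 and 0.05.

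Fatty acid oxidation and ketogenesis genes had 9 of 19 higher and 1 lower in both pairs (2 and none with median centring), with Angptl4, a lipase inhibitor induced by fatty acids, at 0.92 and 1.26. Cholesterol synthesis genes had 6 of 19 higher and none lower in both pairs (3 and none with median centring). Ribosomal protein genes had 13 of 24 lower and none higher in both pairs, but none of 24 lower with median centring, with medians of -0.19 and -0.22 and no member past 1.5-fold. Oxidative phosphorylation subunits had medians of 0.20 and -0.01.

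**Figure D5:**
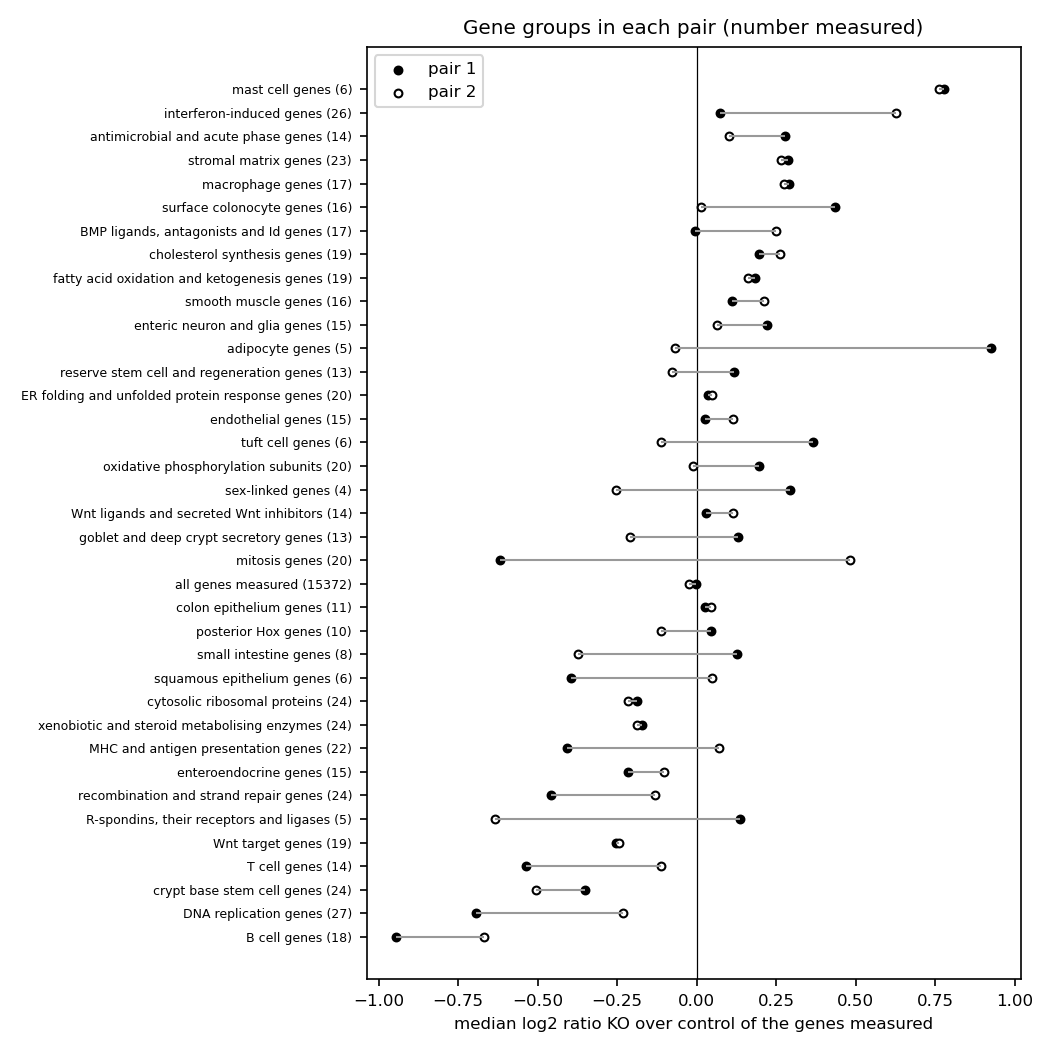
Median log2 ratio of Rspo3 KO over control (x axis) in pair 1 (filled) and pair 2 (open) for each gene group, with the number of genes measured in parentheses. Groups are ordered by the median of the mean ratio, with B cell genes lowest (-0.94 and -0.67) and mast cell genes highest (0.78 and 0.76). With the loess scaling plotted here, mitosis genes lie on opposite sides of 0, and all genes measured lie at 0.00 and -0.02.

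The same probes were read on the arrays of sorted epithelial cells. Of the 379 genes lower past 1.5-fold, 341 were measured there, and 21.99% of these were past 1.5-fold higher in Axin2+ than in Axin2- cells on both arrays, against 6.84% of all genes measured. A further 11.1% of the 341 were past 1.5-fold lower in Axin2+ cells on both arrays, also above the 6.04% of all genes. Of the 285 genes higher past 1.5-fold, 212 were measured there, of which 3.30% were higher and 25.5% lower in Axin2+ cells, against 6.04% lower among all. The sorted cells are 1 pool hybridised with reversed dyes, so these shares have no test.

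On mm9, some called genes lie near each other. Lpo and Cuedc1 lie 381 kb apart on chromosome 11, and Slx1b and Gdpd3 lie 81.4 kb apart on chromosome 7 with opposite directions. Chromosome 1 held 6 of the 37 (16.2%) and 5.83% of the measured genes with a listed position. Chromosome 10, which carries Rspo3, held 3 of the 37 (8.11%) and 4.61% of those measured genes. Raet1e is 1 of these 3, with its probe at 21901099 and the Rspo3 probe shown above at 29224509. These positions were looked at after the calls were known, and the shares were not tested.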

How the data were processed

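RNA of KO and control distal colon was hybridised on 2 Agilent arrays of the whole mouse genome with 2 dyes, 1 mouse per channel, with reversed dyes. Both arrays lie on 1 slide, and samples were grouped by the channel labels. The authors deposited, for each spot, linear intensities of signal and local background in both dyes, flags of its quality, and a log10 ratio (Cy5 to Cy3) with its error, made by Agilent's feature extraction software. The p-value of each log10 ratio was not used. The series' table of values that the authors deposited holds the same log10 ratios. The methods name an error-weighted combination of ratio profiles, which was approximated as an alternative.

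Intensities were background-corrected by normexp (offset 50) and normalised by loess within arrays in limma (version 3.58.1, R version 4.3.3). Control spots and outlier spots were left out, and spots with a background outlier (66 and 6) were kept out of the background fit. Replicate spots were averaged, KO was placed on top in every ratio, and the brightest probe stood for a gene. Levels of single mice are log2 intensities after a further normalisation of average intensity between the arrays. Of 41174 probes, 33746 were named through RefSeq (GRCm38.p6) and the rest kept the array's name, and probe positions are those of mm9. Between 53.6% and 60.3% of gene spots were well above background per mouse, which with the number of arrays limits the precision.

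Log2 ratios were tested against 0 with limma (lmFit and eBayes, 6.75 prior degrees of freedom and 1 residual), with Benjamini-Hochberg adjustment over 15372 genes at 0.05. The fit was tested on simulated data, where false calls tended to exceed the nominal share. Apart from the traits given in the opening, the labels hold 1 number for each mouse. Where a signal was not well above background in either mouse of a group, the fold is a bound against the higher of the probe's own signal and the lowest signal well above background. Such a bound holds for the reported processing alone. Gene lists were described by counts and medians, and some members counted are not reported here by name. The named genes are Rspo3, Lgr5 and Axin2, 10 rises and 10 falls with the largest means among named calls, called members of each list, up to 4 members with the largest means past 1.5-fold and up to 2 bright ones, and the text names further calls and members, chosen after their values were seen. Members and lists were chosen with earlier results of these data known. The alternatives were the software's ratios, the series' table, other background corrections, median centring, other filters, the mean over probes, a dye correction, each pair left out, error weighting, a 2-fold limit and, chosen after seeing the data, all 4 arrays in 1 fit.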

Additional observations from a re-analysis of the deposited data

How the results depend on the processing

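The number of genes called by limma, 37 as reported, depended strongly on the processing. It was 130 with the software's log ratios and with the series' table, 126 with an offset of 16, 70 without background correction, 70 with the dye effect of the sorted-cell arrays taken off, 63 with all 4 arrays in 1 fit (chosen after seeing the data), 43 with both channels above background, 8 with median centring, 5 with the mean over a gene's probes, 1 with the background fitted to all spots and 0 without a filter on dim probes (1204 at an unadjusted p under 0.05). Every one of the 37 kept its direction in every alternative in which it was measured. They were chosen for large and agreeing ratios in these same pairs, so the kept direction is no further support. Lpo was called in 10 of 11 tested alternatives, the most of any gene, and the other calls in 5 to 9. The cause of these differences was not tested.

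Genes past 1.5-fold alike, 664 as reported, were 1471 with the software's ratios and with the series' table, 1377 with error weights, 361 with the background fitted to all spots and 182 past 2-fold. With a single pair, between 1555 and 2402 genes were past 1.5-fold, where no agreement of pairs is asked.

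Lgr5 kept its direction throughout. Its mean log2 ratio was -4.44 with the software's ratios and with the series' table, -2.17 without background correction, -2.55 with an offset of 16 and -1.94 with the dye effect taken off. With these 5 settings its adjusted p passed the threshold. The mean was -1.37, the smallest fall with both pairs, with the background fitted to all spots (limma adjusted p = 0.999623). The second Lgr5 probe was scanned near local background in all 4 mice. It gave 92.0 over 75 and 39.0 over 25 in KO mice, and 41.5 over 25 and 97.6 over 80 in control mice. Over 10 tested alternatives the adjusted p ran from 0.000244 to 0.999999, and the error-weighted mean was -4.25. A single pair gave between -2.61 and -1.28. Lgr5 had no value where both channels had to be above background.

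Of the other 74 genes named by rule, 23 lost their call and 12 gained one under some alternative, and none changed direction. Most of them were chosen for moving alike in both pairs, so the kept direction is no further support for them either. The medians of the B cell, crypt base, Wnt target and DNA replication lists were negative in all 12 alternatives other than leaving out a pair. The 12 are not separate checks. The dye correction and the fit of all arrays together left the medians of these lists exactly as reported. The series' table gave the same medians as the software's ratios. The median of mitosis genes was negative in 6 of the 12. List counts of genes alike in both pairs were lower with median centring for most lists, as they were for all genes. The reported test is itself paired, since it uses the ratio within each pair of mice. No paired analysis was possible beyond it because each array holds exactly 1 pair. Dim genes such as Lgr5 and Cr2 have only a bound in KO mice.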
